A study of Mus musculus with 2 samples.

Results

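This report describes 2048 transcripts that were read by 2 probes at different places, an upstream one and a downstream one nearer the 3′ end, in mouse embryonic fibroblasts with and without THOC5. The array design held 20568 RefSeq protein-coding transcripts, of which 15620 had 1 probe, 4292 had 2 and 656 had more. Of the 4292, 4274 had both probes on one chromosome and strand, 3421 of these had probe starts 300 or more bases apart, and 2048 had both probes well above background in every channel of both arrays. The members were thus selected on measured signal as well as on position, and 1373 pairs that met the position rule but not the signal rule are left out. A pair that was bright in only 1 condition could not enter. Of the pairs left out, 13 lost only the downstream probe and 14 only the upstream probe in THOC5-depleted cells, against 9 and 11 in control cells.

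All cells were immortalized fibroblasts of the strain C57BL/6 x B6:129 Ola that carry the floxed alleles THOC5 (flox/flox) and the inducible Rosa26ERT2 Cre. The control cells received no tamoxifen and are called wildtype in the labels. The THOC5-depleted cells were exposed to tamoxifen, 2 days according to the labels. On each of the 2 arrays the Cy3 channel held RNA of unstimulated cells and the Cy5 channel RNA of the same cells after 1 h of serum (FCS), with 1 array per condition and no dye swap. There were no replicate arrays, so no difference between conditions had a replicate check and no p-value was computed. Genotype, tamoxifen, culture, labelling and array cannot be told apart, nor can serum and dye.

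The 3′ end of an mRNA is set when the pre-mRNA is cut and a poly(A) tail is added. Many genes hold more than 1 such site, and use of the earlier one leaves out the sequence behind it, so that a probe placed there has less to bind than a probe in front of it. THOC5 is a subunit of the THO complex, part of the TREX complex that couples transcription to processing and export of mRNA. The study asked how its loss changes immediate early genes and their 3′ ends. Probe pairs along one transcript compare downstream with upstream signal across genes, but they do not locate 3′ ends. The shortening that the study mapped was smaller than the least genomic distance between the probes of a pair. No gene in which it was mapped was a member. Whether a lower downstream signal here reflects use of an earlier site was not tested. In these data the downstream signal was lower relative to the upstream signal in depleted cells in more transcripts than it was higher, and the median difference was larger for probes farther apart.

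The probes are 60 bases long, and the sequences below are stretches of 30 bases from 9 pairs, given 5′ to 3′ in the sense of the transcript. They show the member furthest lower by the smaller of its changes in both channels, the pair past 2-fold higher in both channels that had every signal above 200, the 5 pairs past 2-fold lower in both channels whose upstream probe holds a poly(A) signal word, and the 2 serum-induced genes on the study's lists that were lower in both channels. Capitals mark the first AATAAA or ATTAAA in the probe, the hexamers that most often precede a cleavage site, and coordinates are those of the whole probe in mm9.
Nova1 upstream (chr12:47799762-47799821, minus strand): gcatgcttatttagaagaggcagtttatct
Nova1 downstream (chr12:47797592-47797651, minus strand): acccagcccactcccaaaacagtaaatgta
Xpo7 upstream (chr14:71062054-71062113, minus strand): tcatggaaaggtgtatgttgtggttatctg
Xpo7 downstream (chr14:71054085-71054144, minus strand): agttcaaaaacagccttgctacatacccag
Sub1 upstream (chr15:11913732-11913791, minus strand): cctagtgtgtaaAATAAAgtcagatcatta
Sub1 downstream (chr15:11911627-11911686, minus strand): taaggcttccaaatgggttttcctcttagg
Sec62 upstream (chr3:30718940-30718999, plus strand): tgttctaaaataccaATTAAAaataaagga
Sec62 downstream (chr3:30719504-30719563, plus strand): acaagaaactttgataaaacaaaactgctt
Ddx46 upstream (chr13:55780414-55780473, plus strand): actgaatgctgtAATAAAgtctgtcaggca
Ddx46 downstream (chr13:55782452-55782511, plus strand): cattttgtcctaaaatggaatattgcccag
Nkd2 upstream (chr13:73957581-73957640, minus strand): ccttcttggcatAATAAAgaattgtgcatt
Nkd2 downstream (chr13:73956776-73956835, minus strand): tccaacaccctcacacagacatacatgtag
Enah upstream (chr1:183835644-183835703, minus strand): atccattgctaaAATAAAgacgagaaaggc
Enah downstream (chr1:183834576-183834635, minus strand): cttttaatagaactaaagtgaggcttaagt
Ier5 upstream (chr1:156945765-156945824, minus strand): acgtggcaaacctcatcagcatcttcgggt
Ier5 downstream (chr1:156943530-156943589, minus strand): gcaagggagctgttacttttctactccatc
Skil upstream (chr3:31016390-31016449, plus strand): tgctcagaggatggaggaattctatattga
Skil downstream (chr3:31021203-31021262, plus strand): tatagttttatgATTAAAattgctgtggtt

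The labels were checked on Thoc5 itself, which had 1 probe (chr11:4828807-4828866). Its signal was 4808 in unstimulated and 3047 in stimulated control cells, against 546 and 455 in depleted cells, 8.81-fold and 6.70-fold lower. Of 12 fibroblast marker genes, 11 were well above background in all 4 channels, with a summed signal between 328344 and 463991. Of 6 epithelial, 5 leukocyte and 4 endothelial markers, 3, 2 and 3 were, with Cdh1, Epcam, Ptprc and Tek not well above background throughout and summed signals between 153 and 8943. Over the 23142 probes detected in all channels, signals of the depleted array lay lower by a median of -0.25 log2 units in Cy3 and -0.26 in Cy5, a shift that cancels when both probes of a pair lie on the same array. No spot was saturated.

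The quantity followed below is the change of a pair, the log2 of downstream over upstream signal in depleted cells minus the same in control cells. A value of -1 says that the downstream signal, relative to the upstream signal of the same transcript, was 2-fold lower after depletion, and a pair is called at a size of 1 or more. Brightness differs between probes for reasons of sequence, so only the change of a ratio is read, not the ratio itself. The SD between spots of one probe on an array had a median of 0.05 log2 units, which for a change built from 4 single spots gives 0.099. A wider gauge is given by 532 transcripts whose probes start less than 300 bases apart and were detected alike, where the changes had an SD of 0.23 in both channels. Some of these pairs start less than 60 bases apart, so that their probes overlap and share sequence. The gauge can therefore understate the spread between probes of unrelated sequence.

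In unstimulated cells the median change of the 2048 pairs was -0.16, with quartiles of -0.43 and 0.00 and an SD of 0.44. The change was below 0 in 1523 pairs, or 74.4%. The downstream signal was 2-fold or more lower in 112 pairs (5.47%) and higher in 11 (0.537%). After 1 h of serum the median was -0.04, the SD 0.40, and the change was below 0 in 1157 pairs, or 56.5%. In that channel 60 pairs (2.93%) were lower and 13 (0.635%) higher. In the pairs under 300 bases apart the medians were -0.01 and 0.01. Among these, 1 was lower (0.188%) and 2 higher (0.376%) in unstimulated cells, and 2 were lower (0.376%) and 4 higher (0.752%) after serum. The excess of lower over higher pairs was thus seen in the pairs farther apart, as a description of these 2 arrays. With normexp background correction and loess in place of the scanner software's values, the counts in the 2048 pairs were 65 lower and 5 higher in unstimulated cells, and 33 and 8 after serum. With Aquantile added the medians were -0.0986 and -0.0170, and without the detection rule -0.0839 and 0.

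**Figure D1:**
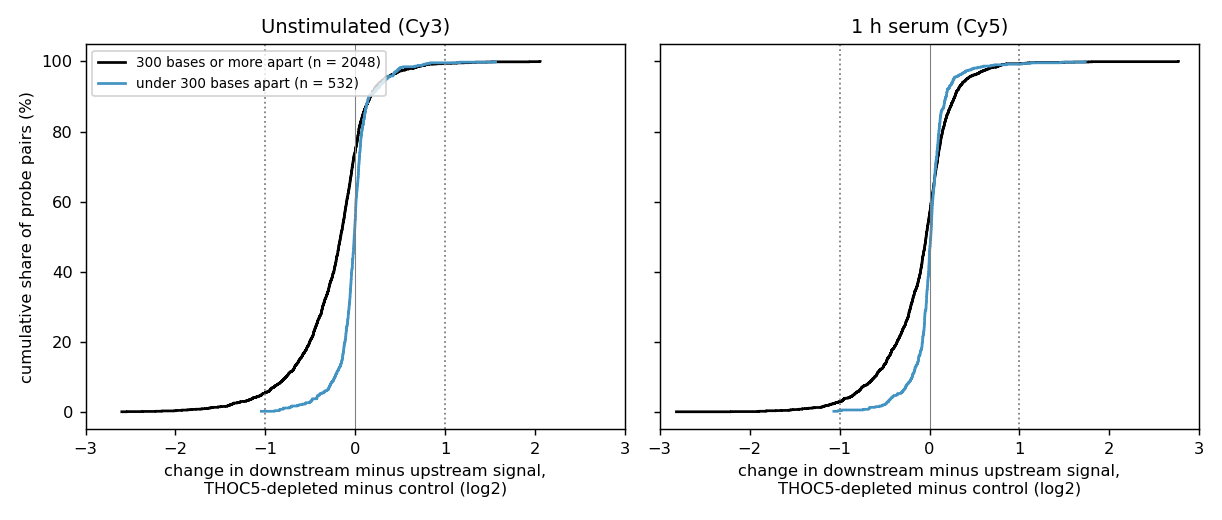
Cumulative share of probe pairs (vertical axis, percent) against the change of the pair (horizontal axis, log2), for unstimulated cells on the left and cells after 1 h of serum on the right; dotted lines mark 2-fold. The black curve of the 2048 pairs lies to the left of the blue curve of the 532 near pairs at low values, with 112 against 1 pair past 2-fold lower in unstimulated cells.

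The change ran with the distance between the probes in the transcript. In unstimulated cells the median was -0.05 for the 418 pairs under 500 bases apart, -0.11 at 500 to 999 bases (501 pairs), -0.21 at 1000 to 1999 (593 pairs), -0.34 at 2000 to 2999 (276 pairs), -0.43 at 3000 to 4999 (192 pairs) and -0.58 at 5000 or more (68 pairs). After serum the same medians were 0.01, 0.01, -0.06, -0.16, -0.30 and -0.33. The share of pairs past 2-fold lower in unstimulated cells was 0.478% in the nearest class and 21.4% at 3000 to 4999 bases, where 41 of 192 pairs were lower and 0 were higher. At 5000 or more bases it was 14.7%, with 10 of 68 pairs lower and 1 higher. Spearman's rho between distance and change was -0.37 in Cy3 and -0.25 in Cy5 over the 2048 pairs, which share the arrays, and in the near pairs -0.18 and 0.00.

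**Figure D2:**
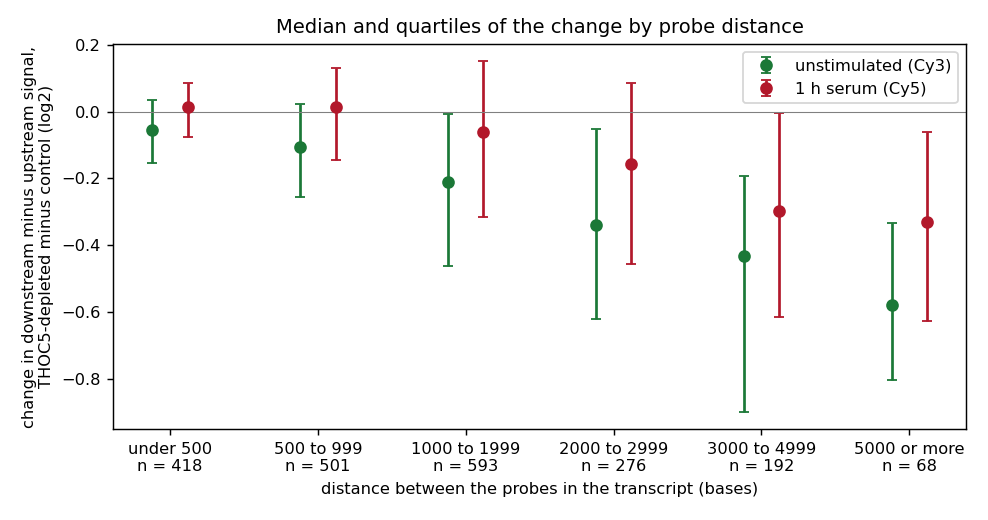
Median change of a pair (points) with its quartiles (bars), on a log2 scale, by the distance between the probes in the transcript, in unstimulated cells (green) and after 1 h of serum (red). The medians go from -0.05 to -0.58 in unstimulated cells and from 0.01 to -0.33 after serum.

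The part of each probe depends on the centring, since the depleted array was dimmer. Set against the median of all detected probes, the upstream probe's median difference between depleted and control cells was 0.03 in unstimulated cells for pairs under 500 bases apart and 0.27 for those 5000 or more apart. The downstream probe's went from -0.04 to -0.30 over the same classes. After serum the downstream medians went from 0.01 to -0.22, while the upstream medians stayed between -0.07 and 0.11. Among the 112 pairs lower in unstimulated cells the downstream probe had the larger part in 53 and the upstream probe in 59. In 26 of them the upstream signal was 0.5 log2 units or more higher and the downstream signal 0.5 or more lower.

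**Figure D3:**
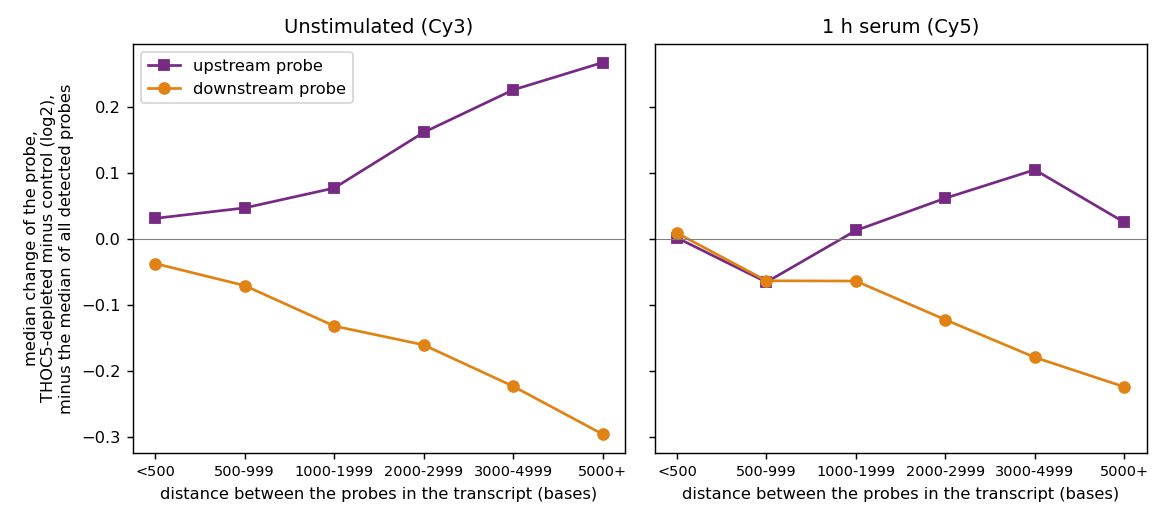
Median difference between THOC5-depleted and control cells for the upstream probe (purple squares) and the downstream probe (orange circles), in log2 units after subtracting the median of all detected probes, by distance between the probes. In unstimulated cells the lines part from 0.03 and -0.04 to 0.27 and -0.30.

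Whether an intron lay between the probes could be read from the files, since genomic and transcript distances are then unequal. They were equal within 5 bases in 939 pairs and unequal in 1109. The 939 intron-free pairs had median changes of -0.24 in unstimulated and -0.12 in stimulated cells, against -0.11 and 0.01 in the others. At 3000 to 4999 bases, 32 of 93 intron-free pairs (34.4%) were past 2-fold lower in unstimulated cells, against 9 of 99 others (9.09%). The medians became lower with distance in both kinds, from -0.11 to -0.70 in intron-free pairs and from -0.04 to -0.38 in the others between under 500 and 3000 to 4999 bases. At 5000 or more bases the median was -0.60 in 22 intron-free pairs, with 5 (22.7%) lower and 1 higher, and -0.57 in the 46 others.

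The hexamers were searched on the probe's sense strand as AATAAA or ATTAAA, which can both occur in one probe. They stood in 16.7% of all 39429 probes, in 7.03% of the members' upstream probes and in 25% of their downstream probes. On the other strand, as TTTATT or TTTAAT, they stood in 6.56% of all probes. The 112 pairs with the word in the upstream probe only had median changes of -0.32 and -0.19, and 9 of them (8.04%) were past 2-fold lower in unstimulated cells. The 1425 pairs with the word in neither probe had medians of -0.16 and -0.04, with 78 (5.47%) past 2-fold lower. Among intron-free pairs 500 to 2999 bases apart, the medians were -0.36 and -0.21 for 81 pairs with the word upstream and -0.23 and -0.11 for 608 without it. The difference in GC percent between the probes had a Spearman's rho of 0.00 with the change in Cy3 and -0.13 in Cy5.

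In 49 transcripts the downstream signal was 2-fold or more lower in both channels and in 7 it was higher in both. The 49 were 43.8% of the pairs lower in unstimulated cells and 81.7% of those lower after serum. Spearman's rho between the changes of both channels was 0.65 over the 2048 pairs and 0.48 over the 532 near pairs, all from the same 2 arrays. No pair was past 2-fold in opposite directions in the 2 channels. Of the 49, 32 were intron-free, against 939 of all 2048. The hexamer stood in the upstream probe of 5 (10.2%), against 7.03% of all members, and every signal was above 200 in 12, against 919 of all.

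**Figure D4:**
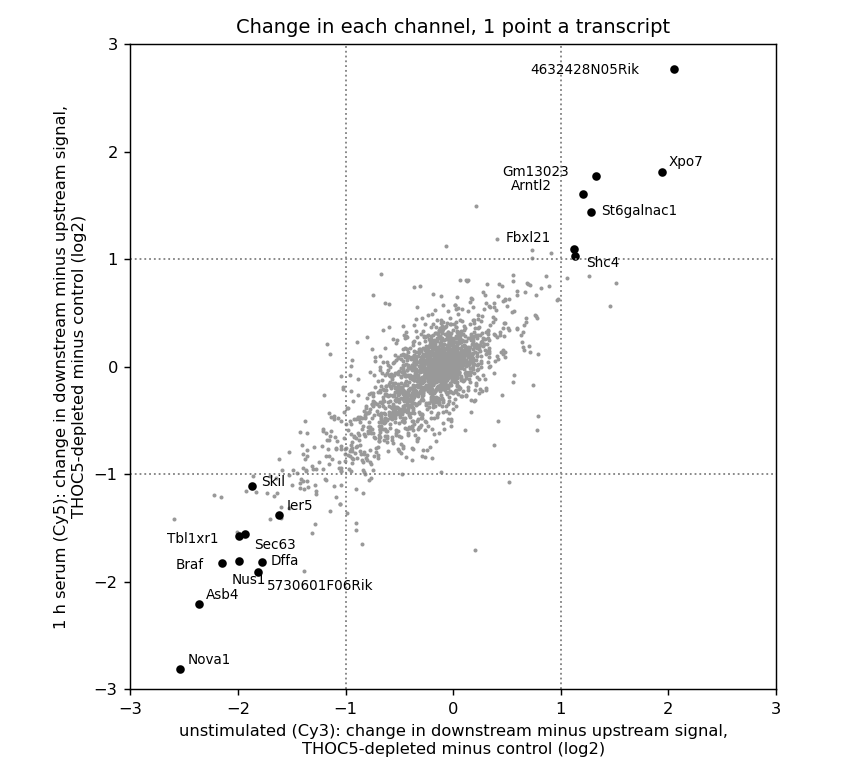
Change of each pair in unstimulated cells (horizontal axis) against its change after 1 h of serum (vertical axis), both in log2 units, with dotted lines at 2-fold. Black points are named, with Nova1 at -2.54 and -2.81 lower left and 4632428N05Rik at 2.06 and 2.77 upper right.

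Nova1, a neuronal RNA-binding protein that steers splicing, was furthest lower by the smaller of its 2 changes. Its upstream signal was 18.5 and 17.3 in unstimulated and stimulated control cells and 95.3 and 91.5 in depleted cells. Its downstream signal was 169 and 187 in control and 150 and 141 in depleted cells. The change was -2.54 and -2.81, and it lay in the upstream probe, which was dim in control cells. Braf, a kinase of the MAPK cascade, had the same form. Its upstream signal was 18.5 and 22.8 in control and 70.8 and 64.7 in depleted cells, its downstream signal 421 and 461 against 365 and 368, and its change -2.14 and -1.83. In Dffa, the inhibitor of the caspase-activated DNase, the upstream signal was likewise higher in both depleted samples (84.9 and 70.8) than in both control samples (27.3 and 28.7), with a change of -1.78 and -1.82.

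In Asb4, a substrate adaptor of a ubiquitin ligase, the downstream probe moved. It read 61.2 and 61.3 in control and 14.4 and 14.1 in depleted cells, while the upstream probe read 21.2 and 29.2 against 25.7 and 31.0, for a change of -2.37 and -2.21. Both Asb4 probes were dim in all 4 samples.

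In Nus1, Sec63, Tbl1xr1 and 5730601F06Rik the upstream signal was higher and the downstream signal lower in depleted cells, though the upstream difference of Sec63 after serum was only 0.14 log2 units. Nus1, a subunit of the enzyme that makes the dolichol backbone, read 2158 and 2083 upstream in control and 3346 and 2946 in depleted cells. Downstream it read 178 and 163 against 69.4 and 65.9, a change of -1.99 and -1.81. Sec63, a cochaperone of the endoplasmic reticulum translocon, read 822 and 1012 upstream against 1191 and 1112, and 193 and 163 downstream against 73.0 and 60.7. Its change was -1.93 and -1.56. Tbl1xr1, a subunit of nuclear receptor corepressor complexes, read 161 and 154 upstream against 262 and 256, and 1077 and 772 downstream against 442 and 432, with a change of -1.99 and -1.57. The zinc finger gene 5730601F06Rik, now Zfp266, had a change of -1.81 and -1.91.

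**Figure D5:**
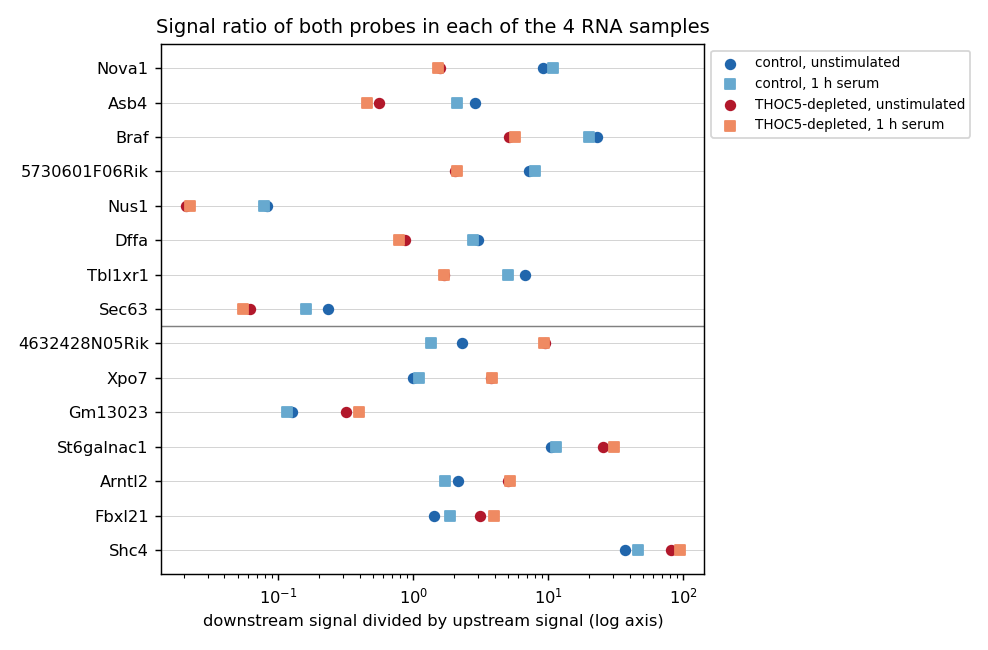
Downstream signal divided by upstream signal (log axis) in each of the 4 RNA samples for the 8 pairs furthest lower in both channels (above the line) and the 7 pairs higher in both (below it). In each pair both depleted samples lie on the same side of both control samples; the choice of these pairs fixes this within each channel.

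Among the 919 pairs with every signal above 200, the lowest changes in unstimulated cells were in Anp32e (-2.23), Ddx21 (-2.01), Ppig (-1.73), Man1a2 (-1.70) and Ier5 (-1.62). After serum they were in Ddx21 (-1.54), Whsc1 (-1.45), Man1a2 (-1.42), Prpf39 (-1.41) and Ier5 (-1.38). Ddx21, a nucleolar RNA helicase, read 3745 and 5470 upstream in control and 7902 and 6674 in depleted cells, and downstream 2064 and 2609 against 1079 and 1098. Man1a2, a Golgi mannosidase, read 1182 and 1233 upstream against 1344 and 1373, and downstream 5018 and 4141 against 1757 and 1722. The lower downstream signal made up most of the Man1a2 change. Prpf39, a factor of the U1 snRNP, read 818 and 853 upstream against 1147 and 1012, and downstream 1260 and 1040 against 583 and 464. Whsc1, the histone methyltransferase now named Nsd2, passed 2-fold after serum only, with -0.91 in unstimulated cells. Of the 919, 38 were lower and 1 higher in unstimulated cells, and 15 and 1 after serum.

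The 5 transcripts with a hexamer in the upstream probe and a lower downstream signal in both channels, printed above and picked out after their values were seen, came in 2 forms. In Sub1, a single-strand DNA-binding transcription cofactor, the upstream signal was 28819 and 38818 in control and 22858 and 25859 in depleted cells. Its downstream signal was 378 and 316 in control and 94.3 and 91.7 in depleted cells, a change of -1.67 and -1.20. Sec62, another protein of the endoplasmic reticulum translocon, read 16951 and 17734 upstream against 12223 and 12052, and 88.5 and 82.7 downstream against 23.8 and 25.8. Ddx46, an RNA helicase of the spliceosome, read 4132 and 4888 upstream against 3738 and 3565, and 1928 and 1779 downstream against 665 and 590. In these 3 the upstream probe differed by -0.32 to 0.11 log2 units from the median of all probes and the downstream probe by -1.75 to -1.29. Nkd2, an inhibitor of Wnt signalling, read 40.2 and 29.5 upstream against 78.9 and 72.8, and downstream 3070 and 3187 against 2476 and 2857. Enah, a regulator of actin filaments, read 1626 and 1680 upstream against 2557 and 2486, and downstream 99.7 and 126 against 75.4 and 77.1. Set against the median of all detected probes, the upstream probe made up most of the change in Nkd2 and Enah. In Enah after serum this held only with that centring, since the measured signals differed by 0.57 log2 units upstream and -0.71 downstream.

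The 7 transcripts higher in both channels were 4632428N05Rik (now Vsir), Xpo7, Gm13023 (now Pramel25), St6galnac1, Arntl2, Fbxl21 and Shc4. Xpo7, a nuclear export receptor, was the only one of them with every signal above 200. It read 608 and 567 upstream in control and 238 and 243 in depleted cells, and downstream 601 and 623 against 902 and 936, a change of 1.94 and 1.81. In 4632428N05Rik, an immune checkpoint receptor, the upstream probe read between 24.1 and 31.0 in all 4 samples. Its downstream probe read 70.5 and 32.8 in control and 254 and 247 in depleted cells. Shc4, an adaptor of receptor tyrosine kinases, read 24.99 to 29.5 upstream in all 4 samples, and downstream 1082 and 1151 against 2388 and 2776. St6galnac1, a sialyltransferase, read 45.4 to 51.4 upstream, and downstream 541 and 565 against 1200 and 1392. Gm13023 belongs to a family of similar genes whose reads a probe may not tell apart.

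Among the bright pairs the next differences of this direction were Ppp1r12a, a subunit of myosin phosphatase (0.97 and 0.62), Tardbp, an RNA-binding protein (0.86 and 0.85), and Mybl2, a cell cycle transcription factor (0.77 and 0.67). Pbrm1, a chromatin remodelling subunit, had 0.56 and 0.51. Cd151, a tetraspanin, had -0.74 in unstimulated and 0.67 in stimulated cells, with an upstream signal of 212 and 426 in control and 328 and 211 in depleted cells.

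The study's lists of serum-induced genes held 101 entries, of which 8 were members, and they were chosen on these arrays. Of the 8, 2 were past 2-fold lower in unstimulated cells and 3 after serum, against 5.47% and 2.93% of all 2048 pairs, and 0 were higher. The change was below 0 in 4 of the 8 in each channel, against 74.4% and 56.5% of all pairs, and their median changes were -0.14 and -0.23. Ier5, an immediate early gene, read 1114 upstream in unstimulated and 4857 in stimulated control cells and 1061 and 1575 in depleted cells. Downstream it read 650 and 2162 in control and 202 and 269 in depleted cells, a change of -1.62 and -1.38. Skil, which encodes the TGF-β corepressor SnoN, read 94.1 and 415 upstream in control and 250 and 332 in depleted cells, and downstream 917 and 4399 against 669 and 1635. Its change was -1.87 and -1.11. Gem, a small GTPase, had -0.41 and -0.45.

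The other 5 serum-induced members were Dub1 (0.52 and -1.07), F3 (0.17 and 0.11), Fes (-0.46 and 0.12), Kctd11 (0.16 and 0.64) and 1810011O10Rik, now Tcim (0.12 and 0.00). Dub1, now Usp17la, is one of a family of near-identical deubiquitinases, so its signal may be shared. The study's list names this entry Usp17l24, and Dub1 was matched to it by RefSeq transcript and not by name. Its upstream probe read 64.0, 71.4, 69.3 and 86.4 in unstimulated and stimulated control and unstimulated and stimulated depleted cells, and its downstream probe 77.0, 321, 119 and 185. F3, the tissue factor of blood clotting, read 1168 and 10674 upstream and 5210 and 52468 downstream in control cells, and 1040 and 4162 upstream and 5229 and 22121 downstream in depleted cells. The response of F3 to serum was smaller in depleted cells by 2.28-fold at the upstream and 2.38-fold at the downstream probe.

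None of the 15 genes on a separate list, drawn from single-gene experiments, was a member. All of them except Jun and Gapdh are also on the study's lists of serum-induced genes. Tcim, a member described above, was measured in the study's single-gene experiments too but was not on this separate list. Myc, Smad7, Id1, Id3, Wnt11, Egr1, Fos, Ier2, Jun, Dusp2, Errfi1, Hes1, Lif and Snai1 had 1 probe each, and Gapdh had 7. Genes known from textbooks for tandem poly(A) sites were also looked up. Timp2, an inhibitor of metalloproteinases, had -0.86 and -0.81, the chromatin protein Hmga2 -0.38 and -0.33, and the small GTPase Rab10 -0.42 and -0.36.

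Of 18 genes of THO and TREX, 3 were members. Thoc2, the scaffold of THO, had -0.62 and -0.66. The helicase Bat1a, now Ddx39b, had -0.23 and 0.05, and Zc3h11a, a zinc finger protein of mRNA export, -0.26 and -0.07. Of 22 genes of the cleavage and polyadenylation machinery, 4 were members. None of these 7 was past 2-fold, where 5.47% and 2.93% of all pairs were lower, so the count of 0 says nothing about either group. Fip1l1 and Cpsf4, subunits of the cleavage and polyadenylation specificity factor, had -0.42 and 0.10, and 0.38 and 0.59. Cstf2, the RNA-binding subunit of the cleavage stimulation factor, had 0.02 and -0.05, and Rbbp6 -0.74 and -0.08.

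The serum ratio, stimulated over unstimulated signal on one array, was read by each probe in turn. The downstream ratio minus the upstream ratio had a median of -0.04 log2 units in control and 0.08 in depleted cells. In control cells it was 2-fold or more lower in 9 pairs (0.439%) and higher in 13 (0.635%), 22 in all. In depleted cells it was lower in 1 pair (0.0488%) and higher in 4 (0.195%), 5 in all. In the 532 pairs under 300 bases apart it was lower in 4 (0.752%) and higher in 2 (0.376%) in control cells, and lower in 1 (0.188%) and higher in 0 in depleted cells, so the control share in the members was near that in the near pairs. With normexp background and loess the 22 and 5 became 10 and 1. Within an array, Pearson's r between the ratios of both probes was 0.71 in control and 0.53 in depleted cells over the 2048 pairs. No pair was past 2-fold in opposite directions on the 2 arrays.

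Among pairs with every signal above 200, the downstream ratio was furthest above the upstream ratio in control cells for Alas1, the first enzyme of haem synthesis (1.16), and Elavl1, an RNA-stabilising protein (1.06). Elavl1 read 30077 and 25567 upstream and 917 and 1631 downstream before and after serum in control cells, and 22770 and 19512 upstream and 842 and 1178 downstream in depleted cells. Ehmt1 (0.94), Gigyf1 (0.92) and Tnfrsf9 (0.86) followed. Idua, a lysosomal enzyme, was furthest the other way in control cells at -0.9997, just short of 2-fold, followed by Smo, Cd151, Lrrc8e and Cdk12 at -0.78 to -0.73. In depleted cells Srf, the serum response factor (0.76), Ahnak and 4933407C03Rik (0.75 each), Tnfrsf9 (0.74) and Ncl (0.72) were highest. Usf2, Ccdc82, Rbm33, Cisd2 and Rabac1 were lowest, at -0.59 to -0.42.

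A serum response of 2-fold or more in control cells, as the mean of both probes, was found in 34 members. These were chosen on the control array, so that a smaller value on the other array is no independent result. Their median serum ratio in log2 units was 1.35 upstream and 1.66 downstream in control cells, and 0.37 and 0.66 in depleted cells. The response was smaller in depleted cells at the upstream probe in 32, at the downstream probe in 33 and at both in 32. The median reduction was 1.85-fold upstream and 1.90-fold downstream. In 8 the reduction was over 2-fold at both probes. Pdgfb, a growth factor of mesenchymal cells, showed it with serum ratios of 2.28 and 2.17 in control and 0.23 and 0.43 in depleted cells at the upstream and downstream probe. Kctd11, a ubiquitin ligase adaptor, had serum ratios of 3.70 and 3.90 against 1.45 and 2.12. Il1rl1, an interleukin receptor, had 1.32 and 1.77 against 0.06 and 0.22. Hmox1, haem oxygenase, had 1.61 and 1.70 against 0.75 and 0.87. Its signal before serum was already higher in depleted cells, 1067 upstream and 15297 downstream against 457 and 6370 in control cells. After serum it was also higher there, 1791 and 27874 against 1397 and 20749. In these 4 genes the serum ratio was smaller in depleted cells at both probes. In Skil the reduction was 3.33-fold upstream and 1.96-fold downstream. Spty2d1, a histone chaperone, was the third induced member besides Ier5 and Skil whose pair change was past 2-fold lower in both channels (-1.36 and -1.07). That made 3 of the 34, against 49 of all 2048 members. By channel, 3 of the 34 (8.82%) were lower in unstimulated cells and 4 (11.8%) after serum, against 5.47% and 2.93% of all members.

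The 300-base limit fell between Mtcp1 at 300 and Rnd2 at 302 bases, with changes of 0.15 and 0.13, and -0.06 and 0.00, and Dusp13 and Egln3 at 299 bases, with -0.21 and -0.21, and -0.22 and -0.06. Genomic distance spanned 300 to 18007258 bases with a median of 2510.5, and 37 pairs were over 100000 bases apart. The distance in the transcript had a median of 1143 bases, and in 2 pairs the order in the transcript was opposite to that in the genome.

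The distance between the probes moved with the change in the 2048 pairs, and its part in the difference between conditions was not tested. RNA and labelling quality were not measured in the files used here and cannot be told apart from the condition. The pairs with a signal at 200 or less had a median change of -0.19 in unstimulated cells and those above 200 in every sample -0.13.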

How the data were processed

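Total RNA of the 4 samples was labelled as Cy3 or Cy5 cRNA and hybridized to 2 dual-colour arrays. Per the labels and the methods, the authors read the arrays with Agilent Feature Extraction 10.7.3.1. The deposited intensity values are its processed signals, background-subtracted and dye-normalized, with the mean, background and background-subtracted signals beside them. A further deposited table of processed ratios was not used, since its direction is not stated. Probe coordinates are those of the files (mm9). No annotation of that build was used, so whether a probe lies in a UTR was not analysed here. Gene names are those of the files, and 2027 of the 2048 accessions matched a RefSeq table (GRCm38.p6), which gave a newer symbol for 230.

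Control spots and the 239 and 234 outlier spots of the 43020 per array were left out, log2 signals of repeated spots were averaged per probe, and the pair change was computed with Python 3.11.15, pandas 2.3.3 and scipy 1.17.1. A pair was called at 2-fold. With 1 array per condition no test was run, and precision is limited by this number of arrays. The calculation was tested on simulated data with added changes well past the 2-fold limit and noise smaller than the spread of the measured changes. This checks the steps of the calculation only and not how reliable the calls are. Limma 3.58.1 (R 4.3.3) gave the alternatives with normexp background (offset 50), loess and Aquantile. The other alternatives were signals without dye normalization, signals above 200, a floor of 10 in place of the detection rule, distances of 1000 or more or of 300 to 5000 bases, outlier spots kept, outermost probes of transcripts with more than 2, 1 pair per gene symbol and a 1.5-fold limit. Named genes were up to 8 transcripts per direction past 2-fold in both channels, members of the gene lists, the 5 largest and smallest values among pairs with every signal above 200, the 2 pairs on each side of the 300-base limit, and Thoc5. The 5 pairs with an upstream hexamer and the 34 serum-induced members were added after the values were seen. The members, the gene lists and the rule were chosen with earlier results of these data known. A member of the list of tandem poly(A) genes is not reported here.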

Additional observations from a re-analysis of the deposited data

How the results depend on the processing

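No paired analysis was possible because each condition had 1 array. With normexp background and loess, 65 pairs were lower and 5 higher in unstimulated cells and 33 and 8 after serum. The median after serum was then -0.0573, and the serum ratio differed between probes in 10 pairs in control and 1 in depleted cells. With Aquantile added these were 62 and 5, 29 and 6, and 10 and 1, with medians of -0.0986 and -0.0170. With every signal above 200 (919 pairs) they were 38 and 1, 15 and 1, and 2 and 0, with medians of -0.130 and -0.0228. Without the detection rule and with a floor of 10 (3421 pairs) they were 175 and 53, 129 and 58, and 64 and 16, with medians of -0.0839 and 0. At a 1.5-fold limit they were 333 and 45, 220 and 57, and 137 and 76. With distances of 1000 or more bases the unstimulated median was -0.18. At 300 to 5000 bases, 38 pairs were lower after serum and the serum ratio differed in 2 in depleted cells. With outermost probes it differed in 8 in depleted cells. Intron-free pairs alone, an alternative chosen after seeing the data, gave 5 higher in unstimulated cells, 38 lower and 7 higher after serum, 1 with a different serum ratio in depleted cells, and medians of -0.24 and -0.12. Fewer pairs entered several of these settings, and for the background corrections the cause was not tested. For the pair change between conditions, lower pairs outnumbered higher pairs in both channels in each of these settings. Of 94 recomputed values, 47 stayed within 1.5 times the count or within the 95% interval of the median. That interval is taken over the pairs of the same 2 arrays, so it does not measure how the median would differ between replicate arrays. Signal over background limits the pairs: 919 of the 2048 had every signal above 200, and 12 of the 49 lower in both channels.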
